A study of Rattus norvegicus with 8 samples.

Results

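The genes described here encode the digestive enzymes, membrane proteins and proton pump of the lysosome. They were taken as the protein-coding gene models of the deposited count table whose symbol is on a list of 38 names, and all 38 were found, out of 22293 protein-coding models and 34298 models in all. They comprise 16 hydrolases, 6 membrane proteins, 3 soluble proteins that are not enzymes (Psap, Npc2 and Grn), 12 genes of the vacuolar H+-ATPase (V-ATPase) and the transcription factor gene Tfeb.

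The RNA came from the orbitofrontal cortex of outbred Sprague-Dawley rats, adult males that were 8 weeks old on arrival. Every animal had received 1 µl of the transfection reagent JetPEI carrying 5 ng of siRNA, and tissue was collected 7 days later. In 4 animals (replicates 1 to 4) the siRNA matched the junction that closes circNrxn3, a circle made from the neurexin 3 gene, and in 4 (replicates 1, 3, 4 and 5) it was a scrambled control siRNA. The libraries were selected by poly-A tail, which a circular RNA lacks, so they do not measure the targeted circle, and the infused siRNA is not restricted to a cell type. Total counts were 28219271 to 35221782 per library with circNrxn3 siRNA and 27589883 to 35191810 per library with scrambled siRNA. Neuronal markers (Rbfox3, Snap25, Syt1, Slc17a7, Gad1, Gad2 and Tubb3) summed to 7199.95 to 7884 CPM (reads per library scaled to a common total) in libraries with circNrxn3 siRNA and 7151 to 7728 CPM in libraries with scrambled siRNA, while the choroid plexus markers Ttr, Kl and Folr1 had 0 to 11 reads in any library. Red cell markers summed to 576 ± 173 CPM with circNrxn3 siRNA and 1277 ± 802 CPM with scrambled siRNA (SD, n = 4 each, exact permutation p = 0.0857, 2-sided). Scrambled replicate 3 had the highest sum, 2438 CPM. All 5 markers were lower at an unadjusted edgeR p under 0.05, as were 3.2% of all genes tested, and 0 of the 5 passed after adjustment. Astrocyte markers summed to 2535 ± 148 CPM with circNrxn3 siRNA and 2875 ± 189 CPM with scrambled siRNA (SD, n = 4 each, exact permutation p = 0.0571). The 6 markers were not alike in log2 fold change of circNrxn3 siRNA over scrambled siRNA. Gfap was at −0.43, Aldh1l1 at −0.28 and S100b at −0.17. Aqp4 was at −0.08, Slc1a3 at −0.05 and Gja1 at 0.0098, and 0 of the 6 passed the edgeR test given below. The part of red cells or of astrocytes in the results below was not tested.

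Lysosomes break down proteins, lipids, glycans and glycogen delivered by endocytosis and autophagy. Their hydrolases work at acid pH, which the V-ATPase maintains. The cytosolic V1 sector of this pump hydrolyses ATP, and the membrane-bound V0 sector carries protons across. In neurons the same pump acidifies synaptic vesicles and so drives the loading of neurotransmitter. TFEB is known to bind an E-box type element in the promoters of many lysosomal genes, and loss of single hydrolases or transporters causes lysosomal storage disease, often with neurodegeneration.

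The promoters of 31 of the 38 genes were found among RefSeq promoters of the assembly GRCr8, given as 250 bases before and 50 after each gene start. They were read for the motif GTCACGTG on both strands, an 8-base form of the TFEB element that contains the shorter E-box CACGTG. It occurred in 6 of the 31 promoters, or 19.4%, and in 2.32% of the 21851 protein-coding promoters of the table. The shorter CACGTG occurred in 8 of 31 (25.8%) and in 7.02% of all, with Cd63 and Ctsf as the additional genes. A match describes letters in this window and is not a measured binding site. The 6 stretches are shown because they are a feature that some enzyme, membrane and pump genes share beyond their function. Capitals mark the motif on either strand, and each stretch ends before the gene start.
Ctsd: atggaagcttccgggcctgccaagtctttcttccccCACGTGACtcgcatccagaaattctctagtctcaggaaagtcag
Gaa: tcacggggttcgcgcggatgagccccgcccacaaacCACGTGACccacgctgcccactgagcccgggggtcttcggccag
Glb1: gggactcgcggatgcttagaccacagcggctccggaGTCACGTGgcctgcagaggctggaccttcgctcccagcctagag
Lamp1: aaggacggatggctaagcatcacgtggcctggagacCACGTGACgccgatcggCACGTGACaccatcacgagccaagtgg
Mcoln1: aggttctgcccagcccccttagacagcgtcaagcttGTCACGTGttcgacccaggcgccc
Atp6v0d1: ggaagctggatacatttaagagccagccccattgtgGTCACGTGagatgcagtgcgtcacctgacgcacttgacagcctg
In GRCr8 these lie at chr1:206968935-206969014 (minus strand), chr10:105028252-105028331 (plus), chr8:122963580-122963659 (plus), chr16:83075187-83075266 (minus), chr12:6358198-6358257 (plus) and chr19:50357259-50357338 (minus). The motif began 157 bases before the start of Ctsd, 67 before that of Gaa, 102 before that of Glb1, 24 before that of Mcoln1 and 54 before that of Atp6v0d1. Those of Ctsd and Mcoln1 held another match each, 10 bases before and 4 bases after the start. In Lamp1 there were 4, at 167, 150, 65 and 38 bases before the start. The 6 genes with the motif had log2 fold changes of circNrxn3 siRNA over scrambled siRNA of −0.06 (Ctsd), −0.19 (Gaa), −0.0056 (Glb1), 0.036 (Lamp1), −0.037 (Mcoln1) and −0.067 (Atp6v0d1), none of which passed the test given next. Among genes of the other lysosomal lists below, 12 of the 82 promoters found held the motif. A 10-base form, the motif extended so that it reads the same on both strands, occurred in 3 of these 82 promoters. That form occurred in 0 of the 31 promoters above and in 0.311% of the 21851 protein-coding promoters.

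In rn6, the build of the count table, the genes given in most detail below lie as follows, each span covering the whole gene model with its exons and introns. The pump genes are Atp6ap2 (ENSRNOG00000003858) at chrX:11136939-11164915, Atp6v0b (ENSRNOG00000019655) at chr5:136718352-136721379, Atp6v0c (ENSRNOG00000006542) at chr10:13537033-13542077 and Atp6v1e1 (ENSRNOG00000011905) at chr4:153351421-153373649. The others are Ppt1 (ENSRNOG00000012616) at chr5:140538260-140558162, Cd63 (ENSRNOG00000007650) at chr7:3320103-3335582, Lamp1 (ENSRNOG00000019629) at chr16:81689590-81706561, Psap (ENSRNOG00000000571) at chr20:29831314-29856875 and Tfeb (ENSRNOG00000014666) at chr9:15207822-15214596.

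No lysosomal gene passed the test between the siRNA groups. Adjusted by Benjamini-Hochberg over all genes, edgeR's quasi-likelihood test called 0 of the 38 genes and 0 of all 16573 genes tested (0%), with a smallest adjusted p of 0.833 in both. Of the 38, 4 had an unadjusted p under 0.05, namely Atp6ap2 and Ppt1 at higher and Cd63 and Atp6v0b at lower levels in circNrxn3 siRNA libraries, against 5.59% of all genes tested (2.38% higher and 3.2% lower). DESeq2 gave an adjusted p to 27 of the 38 and called 0 of these, and called 6 genes in all (0.154% of the 3907 with an adjusted p). The count of 4, and the share of all genes with it, changed when single libraries were left out. With circNrxn3 replicate 1 removed it was 1 (3.24% of all genes), with replicate 2 of that group removed 1 (3.41%), with replicate 3 removed 5 (9.11%) and with replicate 4 removed 2 (4.66%). Removing scrambled replicate 1 gave 6 (10.1%), removing replicate 3 of that group 2 (3.41%), removing replicate 4 gave 1 (3.88%) and removing replicate 5 gave 0 (4.76%). The 38 log2 fold changes ran from −0.31 (Ctsz) to 0.27 (Scarb2) with a median of −0.04, 22 below and 16 above 0. With each library left out, Ctsz ran from −0.52 to −0.10, Scarb2 from 0.05 to 0.61 and the median from −0.06 to −0.0014. All genes tested had a median of 0.0066, with 48.7% below 0. In tissue samples of this kind, a difference in the number of cells of a type and a difference in RNA per cell cannot be told apart.

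**Figure D1:**
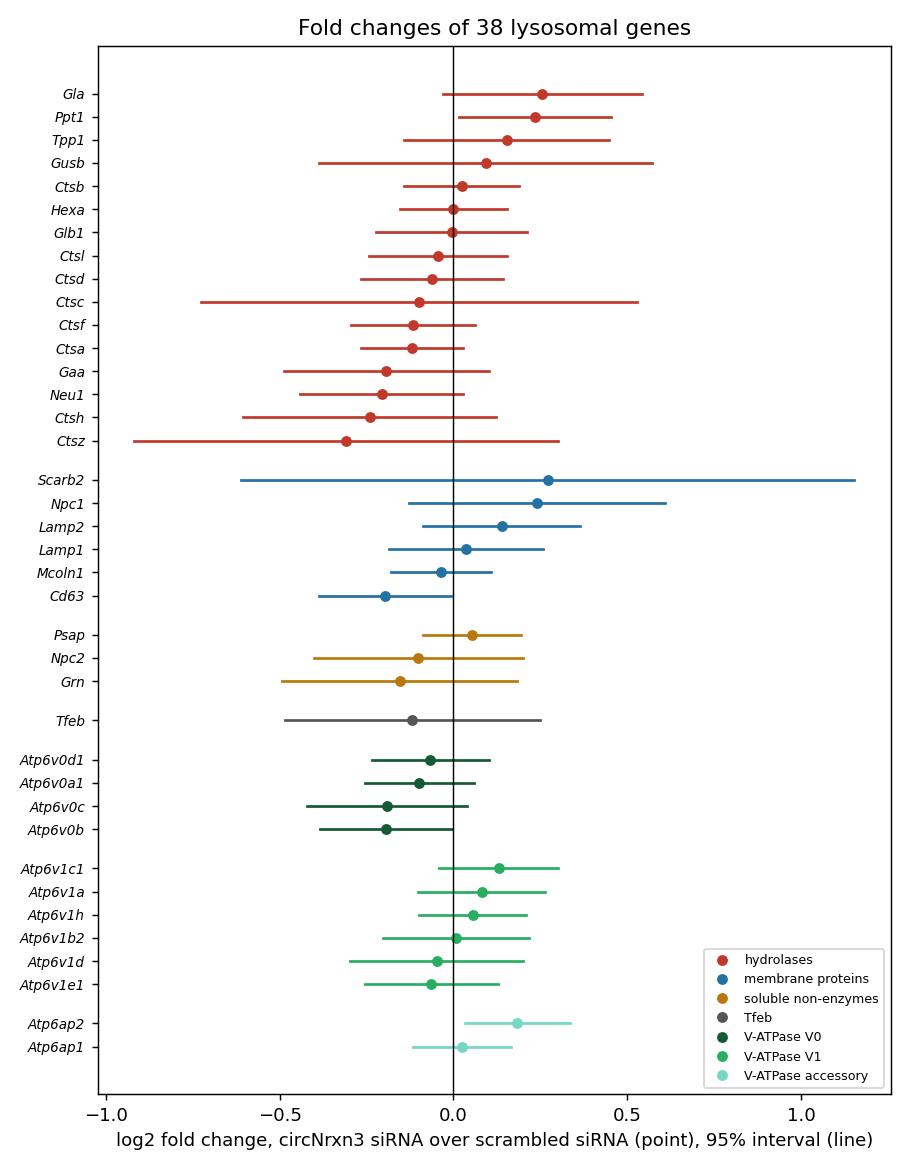
Log2 fold change of circNrxn3 siRNA over scrambled siRNA for each of the 38 genes (points) with its 95% interval from the edgeR fit (lines), grouped by role, 4 libraries a group. The points lie between −0.31 and 0.27, and the intervals of all but Atp6ap2, Ppt1, Cd63 and Atp6v0b include 0.

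The proton pump made up the most abundant transcripts of the set. Per length of gene model, on the authors' FPKM scale, Atp6v0c led all 38 genes. Atp6v0c encodes the c subunit that forms the proton-carrying ring, of which the assembled pump holds several copies. It had 1450.1 ± 155 FPKM in circNrxn3 siRNA libraries and 1669 ± 187 FPKM in scrambled siRNA libraries (SD, n = 4 each). Mean levels over the 8 libraries were 132 to 1559 FPKM for the V0 genes, 86.7 to 443 FPKM for the V1 genes, and 131 and 173 FPKM for the accessory genes Atp6ap2 and Atp6ap1. The hydrolases ran from 1.52 FPKM (Gusb) to 257 FPKM (Ctsb). The membrane proteins ran from 2.60 FPKM (Npc1) to 207 FPKM (Lamp1). Psap stood second of all 38 at 575 FPKM, and Tfeb was at 8.50 FPKM.

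Most neighbours in this order of FPKM levels had overlapping ranges over the 8 libraries. Ranges did not overlap between Atp6v0c and Psap, between Psap and Atp6v1e1 (443 FPKM), and between Atp6v1d (336 FPKM) and Ctsb. They were also apart between Atp6ap2 (131 FPKM) and Atp6v1h (87.2 FPKM), between Neu1 (19.7 FPKM) and Tpp1 (10.7 FPKM), and between Scarb2 (8.24 FPKM) and Npc1 (2.60 FPKM).

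**Figure D2:**
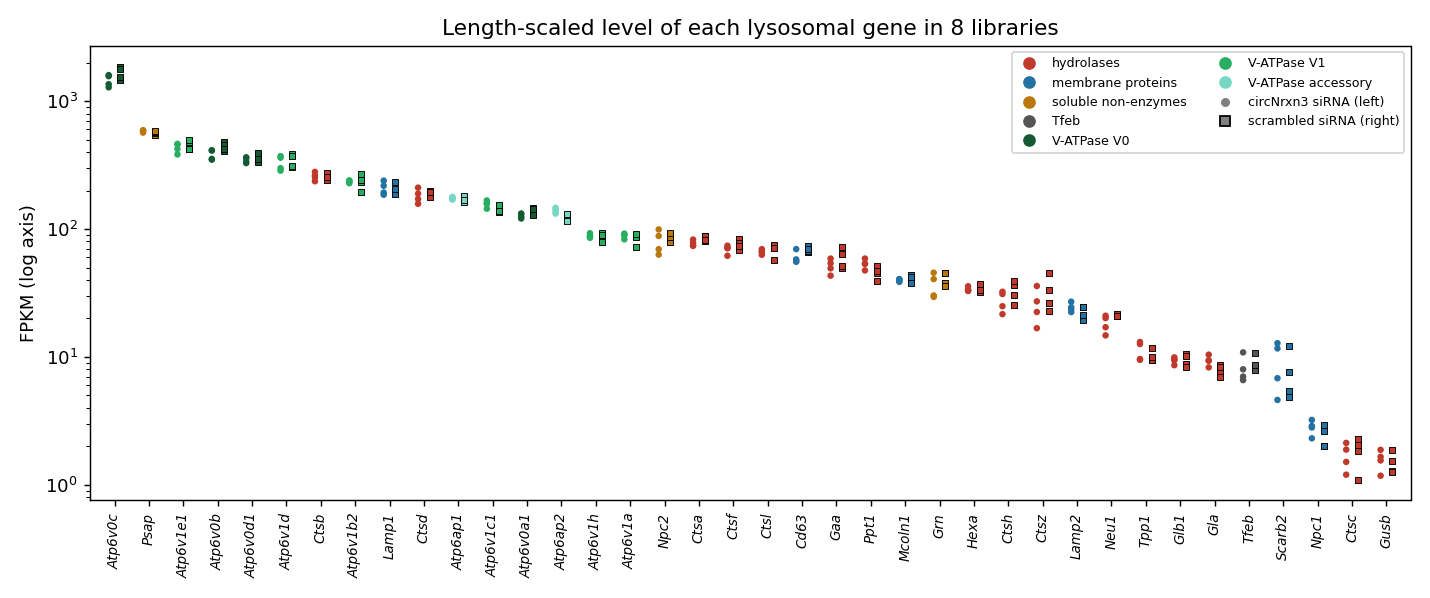
FPKM of each gene in each library on a log axis, genes ordered by their mean over 8 libraries, with circNrxn3 siRNA libraries as circles on the left and scrambled siRNA libraries as squares on the right of each position. Atp6v0c stands highest, and pump subunits fill most of the upper part of the order while Ctsc and Gusb lie lowest, at 1.75 and 1.52 FPKM.

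The median log2 fold change of the 16 hydrolases was −0.05, with 11 below and 5 above 0, and none passed. Ppt1, which removes palmitate from proteins and is mutated in an infantile ceroid lipofuscinosis, had the smallest p of them. Its levels were 69.7, 76.2, 61.3 and 68.8 CPM in circNrxn3 replicates 1 to 4, against 66.6, 50.2, 58.0 and 59.8 CPM in scrambled replicates 1, 3, 4 and 5. The groups overlapped through circNrxn3 replicate 3 and scrambled replicate 1. The log2 fold change was 0.23, standard error 0.10 (edgeR adjusted p = 0.833). Tpp1, a tripeptidyl peptidase whose loss causes another ceroid lipofuscinosis, had a log2 fold change of 0.15, standard error 0.13. Gla, the alpha-galactosidase deficient in Fabry disease, was at 12.1, 13.4, 10.6 and 11.9 CPM in circNrxn3 replicates 1 to 4, against 8.90 to 10.98 CPM in scrambled siRNA libraries. Its groups overlapped, and the log2 fold change was 0.26, standard error 0.13.

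Neu1, the lysosomal sialidase, varied more among the circNrxn3 siRNA libraries. It was at 35.7, 41.3, 48.5 and 50.4 CPM in circNrxn3 replicates 1 to 4, against 51.7, 51.2, 50.2 and 49.8 CPM in scrambled replicates 1, 3, 4 and 5. The coefficient of variation was 15.4% in circNrxn3 siRNA libraries and 1.68% in scrambled siRNA libraries, and the groups overlapped through circNrxn3 replicate 4. Its log2 fold change was −0.21, standard error 0.11 (edgeR adjusted p = 0.833). Ctsa, the carboxypeptidase that protects sialidase and beta-galactosidase in a shared complex, averaged 177 ± 8.88 CPM in circNrxn3 siRNA libraries and 193 ± 8.11 CPM in scrambled siRNA libraries (SD, n = 4 each). Its model overlaps those of Pltp and Neurl2 on the opposite strand, with up to 4569 and 350 reads, so some of these reads may be shared. Glb1, the beta-galactosidase of the same complex, differed by −0.0056 on the log2 scale, with a 95% interval of −0.22 to 0.21.

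The cathepsins, the proteases of the lysosome, covered a wide range of levels. Ctsb and Ctsd, a cysteine and an aspartic protease, averaged 507 ± 34.5 and 373 ± 46.2 CPM in circNrxn3 siRNA libraries. In scrambled siRNA libraries they averaged 499 ± 26.0 and 389 ± 16.1 CPM (SD, n = 4 each). Their log2 fold changes were 0.024 and −0.06. Ctsf and Ctsl, both cysteine proteases, had −0.12 and −0.04. Ctsz, a carboxypeptidase, had the lowest log2 fold change of all 38 genes, −0.31, but a standard error of 0.27. It was at 49.4, 23.1, 37.2 and 30.7 CPM in circNrxn3 replicates 1 to 4, against 36.1, 31.2, 61.4 and 45.3 CPM in scrambled replicates 1, 3, 4 and 5. The groups overlapped widely, and the highest library held 2.66 times the lowest. Ctsh, an aminopeptidase, had −0.24, standard error 0.16. Ctsc, which activates granule proteases of leukocytes, was the scarcest cathepsin, with 3.19 ± 0.779 CPM in circNrxn3 siRNA libraries and 3.42 ± 0.974 CPM in scrambled siRNA libraries (SD, n = 4 each).

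Of the remaining glycan-cleaving enzymes, Gaa, the acid alpha-glucosidase that degrades glycogen, had a log2 fold change of −0.19, standard error 0.13. Hexa, the alpha subunit of beta-hexosaminidase that is mutated in Tay-Sachs disease, was at 61.2 ± 2.32 CPM in circNrxn3 siRNA libraries and 61.2 ± 3.80 CPM in scrambled siRNA libraries (SD, n = 4 each). The 95% interval of its log2 fold change was −0.15 to 0.15. Gusb, the beta-glucuronidase, was scarce, at 4.84 ± 0.915 and 4.54 ± 0.901 CPM in circNrxn3 and scrambled siRNA libraries (SD, n = 4 each).

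Among the 6 membrane proteins the median log2 fold change was 0.09, with 4 above and 2 below 0. Cd63, a tetraspanin of late endosomes and lysosomes, was at 66.0, 63.1, 79.0 and 63.4 CPM in circNrxn3 replicates 1 to 4, against 75.1, 74.9, 82.0 and 79.1 CPM in scrambled replicates 1, 3, 4 and 5. Of the circNrxn3 siRNA libraries, replicate 3 alone reached the scrambled range. The log2 fold change was −0.20, standard error 0.09 (edgeR adjusted p = 0.833). Lamp1, the major glycoprotein of the lysosomal membrane, was at 390.4, 440.2, 481 and 372 CPM in circNrxn3 replicates 1 to 4, against 393, 463, 375 and 411 CPM in scrambled replicates 1, 3, 4 and 5. The ranges nearly coincided, and the log2 fold change was 0.036 with a 95% interval of −0.19 to 0.26. Lamp2, which also serves in chaperone-mediated autophagy, had 0.14, standard error 0.10. Mcoln1, a calcium channel of the lysosome, had −0.037, standard error 0.06.

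Npc1 and Scarb2 varied more between animals than between groups. Npc1 encodes the membrane transporter that releases cholesterol from the lysosome. It averaged 14.7 ± 1.98 CPM in circNrxn3 siRNA libraries and 12.4 ± 2.53 CPM in scrambled siRNA libraries (SD, n = 4 each). Its model overlaps RGD1311805 on the opposite strand, which had up to 1089 reads, and no label says whether the counting separated the strands. Scarb2 encodes the receptor that carries glucocerebrosidase to the lysosome. It was at 25.4, 27.9, 10.0 and 14.7 CPM in circNrxn3 replicates 1 to 4, against 26.3, 11.7, 10.5 and 16.3 CPM in scrambled replicates 1, 3, 4 and 5. Each group held libraries near 10 CPM and libraries above 25 CPM, and the coefficients of variation of 43.7% and 44.2% in circNrxn3 and scrambled siRNA libraries were the highest of the 38 genes in both groups. Its 95% interval was −0.61 to 1.15.

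Psap varied little between libraries, with a highest level 1.08 times the lowest. It encodes prosaposin, the precursor of the activator proteins that present sphingolipids to hydrolases. It was at 1482, 1525, 1529 and 1534 CPM in circNrxn3 replicates 1 to 4, against 1425, 1452, 1476 and 1496 CPM in scrambled replicates 1, 3, 4 and 5. The groups overlapped only through circNrxn3 replicate 1, the coefficients of variation were 1.57% and 2.12%, and the log2 fold change was 0.05 with a 95% interval of −0.09 to 0.19. Grn, the progranulin gene mutated in frontotemporal dementia, was at 108, 71.6, 95.9 and 69.4 CPM in circNrxn3 replicates 1 to 4, against 89.0, 83.1, 107 and 105 CPM in scrambled replicates 1, 3, 4 and 5. The scrambled libraries lay inside the range of the circNrxn3 siRNA libraries. Npc2, which hands cholesterol to the NPC1 protein, had a log2 fold change of −0.10, standard error 0.14.

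Tfeb, the regulator, was at 16.8, 15.8, 25.9 and 19.0 CPM in circNrxn3 replicates 1 to 4, against 19.5, 18.7, 20.4 and 25.5 CPM in scrambled replicates 1, 3, 4 and 5. The groups overlapped, with a single high library in each. The log2 fold change was −0.12, standard error 0.16 (edgeR adjusted p = 0.911). TFEB activity is set largely by phosphorylation and nuclear entry, which mRNA counts do not measure.

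Of the 12 V-ATPase genes of the set, all 4 V0 genes lay below 0 and both accessory genes above 0. Of the 6 V1 genes 2 lay below and 4 above 0, and none of the 12 passed the test. V0 genes outside the set lay on both sides. Atp6v0a4 (0.51) and Tcirg1 (0.05) were above 0, and Atp6v0e1 (−0.19), Atp6v0e2 (−0.06) and Atp6v0a2 (−0.0020) below. The median log2 fold changes were −0.14 for V0, 0.031 for V1 and 0.10 for the accessory genes. Whether the sectors differ was not tested, and subunits of one complex measured in the same animals are not independent. The 95% intervals of the 12 genes lay between −0.42 (Atp6v0c) and 0.33 (Atp6ap2).

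Atp6ap2, an accessory subunit needed for assembly of the pump and also known as the prorenin receptor, was the only one of the 38 genes whose groups did not overlap. It was at 316, 292, 301 and 322 CPM in circNrxn3 replicates 1 to 4, against 278, 268, 285 and 252 CPM in scrambled replicates 1, 3, 4 and 5. Groups did not overlap in 3.48% of all genes tested (1.82% higher, 1.65% lower), so 1 gene of 38 is near the background. The log2 fold change was 0.18, standard error 0.07 (edgeR adjusted p = 0.833), and it ran from 0.14 to 0.21 when each library was left out. Atp6ap1, the other accessory subunit, had 388 ± 7.49 CPM in circNrxn3 siRNA libraries and 381 ± 18.6 CPM in scrambled siRNA libraries (SD, n = 4 each).

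Atp6v0b encodes the second proteolipid of the ring. It was at 361, 355, 419 and 417 CPM in circNrxn3 replicates 1 to 4, against 412, 482, 457 and 426 CPM in scrambled replicates 1, 3, 4 and 5. Its groups overlapped between 412 and 419 CPM, and the log2 fold change was −0.19, standard error 0.08 (edgeR adjusted p = 0.833). Atp6v0c was at 1587, 1497, 1858 and 1819 CPM in circNrxn3 replicates 1 to 4, against 1711, 2141, 2062 and 1799.8 CPM in scrambled replicates 1, 3, 4 and 5. Within each group 2 libraries were high and 2 low, and the log2 fold change was −0.19, standard error 0.10. Atp6v0a1, the large membrane subunit, had −0.10 and Atp6v0d1, which links ring and central stalk, −0.067. Summed over the 4 V0 genes, the level was 3148 ± 253 CPM in circNrxn3 siRNA libraries and 3505 ± 309 CPM in scrambled siRNA libraries (SD, n = 4 each).

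Of the V1 genes, none had an unadjusted p under 0.05. Atp6v1e1, a peripheral stalk subunit and the most abundant V1 transcript per length, was at 573, 517, 616 and 622 CPM in circNrxn3 replicates 1 to 4, against 571, 631, 664 and 567 CPM in scrambled replicates 1, 3, 4 and 5. The groups overlapped over most of their ranges, and the log2 fold change was −0.06, standard error 0.09. Atp6v1a and Atp6v1b2, which together form the ATP-hydrolysing head, had 0.08 and 0.0063. Atp6v1b2 was at 645 ± 14.5 CPM in circNrxn3 siRNA libraries and 643 ± 83.2 CPM in scrambled siRNA libraries (SD, n = 4 each), where scrambled replicate 3 was at 733 CPM and scrambled replicate 5 at 532 CPM. Atp6v1c1 and Atp6v1h, subunits that join the sectors and regulate the pump, had 0.13 and 0.05. Atp6v1d of the central stalk had −0.05.

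**Figure D3:**
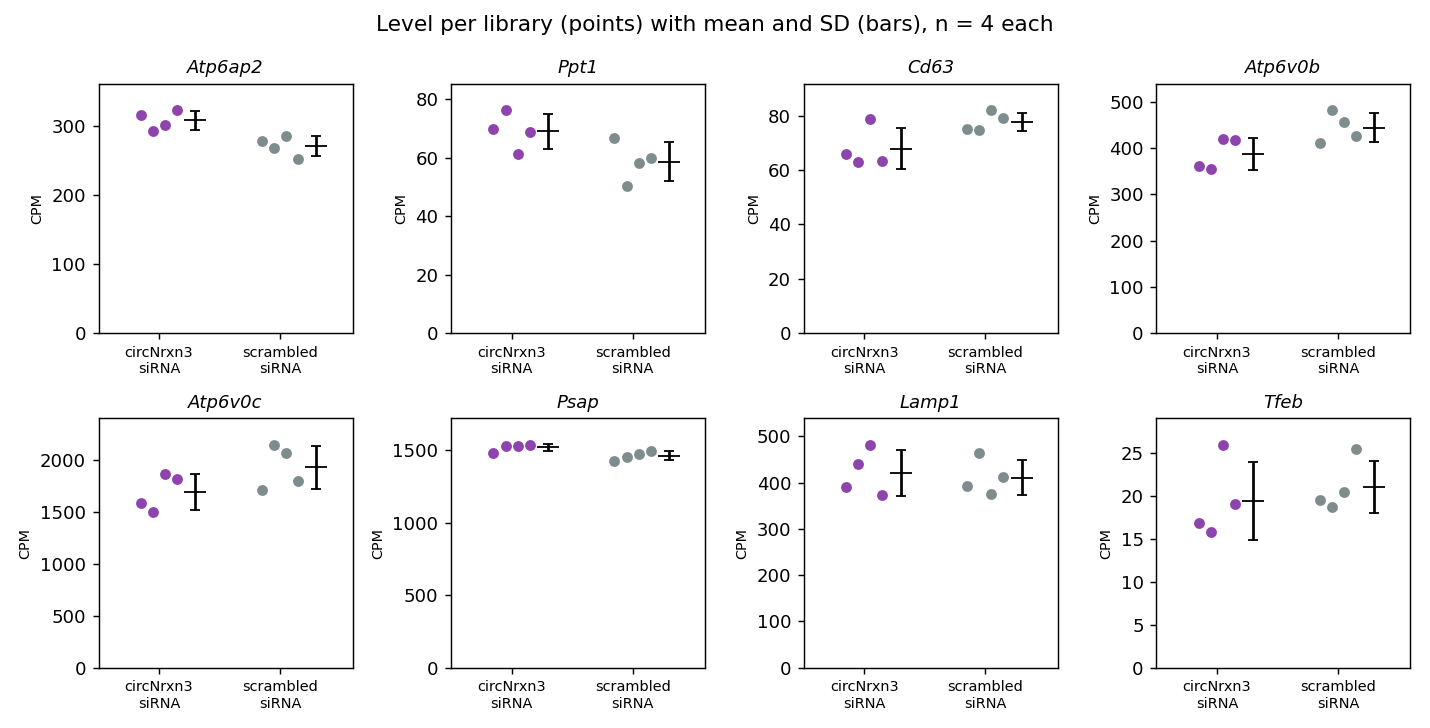
CPM (axis from 0) in each library (points) with the mean and SD (bars) for 8 genes, circNrxn3 siRNA on the left and scrambled siRNA on the right of each panel, 4 libraries each. The groups of Atp6ap2 do not overlap, at 292 to 322 CPM against 252 to 285 CPM, and those of the other 7 genes overlap.

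Several of these genes varied together across libraries. Libraries differed in the balance of long and short transcripts, measured as the mean log2 deviation of 4139 genes with models over 3486 bp minus that of 4134 genes under 1372 bp, with the 38 genes left out. This measure was 0.08, 0.15, −0.05 and 0.0047 in circNrxn3 replicates 1 to 4, against 0.06, −0.08, −0.15 and −0.010 in scrambled replicates 1, 3, 4 and 5 (exact permutation p = 0.200, 2-sided, smallest possible 0.0286). All 4 V0 genes ran against it over the 8 libraries, with Pearson's r of −0.963 for Atp6v0d1, −0.946 for Atp6v0c, −0.890 for Atp6v0b and −0.817 for Atp6v0a1, as did Atp6v1e1 (−0.919), Ctsa (−0.901), Ctsd (−0.854), Atp6v1d (−0.852) and Gaa (−0.815). Scarb2 (0.919), Npc1 (0.945), Tpp1 (0.896) and Ppt1 (0.831) ran with it. These relations were chosen after the values were seen. The models of Atp6v0b, Atp6v0c, Atp6v1e1 and Atp6v0d1 have 1005, 1151, 1331 and 1580 bp and that of Npc1 5161 bp, while Atp6v0a1 has 4011 bp and Ppt1 1278 bp. The part of model length in these relations was not tested.

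With exact p-values adjusted over 33146 relations (both library measures used here with every gene tested), Atp6v0d1 and Npc1 alone of the 38 passed for Pearson's r, 1 negative and 1 positive, against 1.53% of all genes (0.664% negative and 0.869% positive). For Atp6v0d1, Pearson's r was −0.963 (exact permutation p = 0.000174, adjusted p = 0.0417) and Spearman's rho −0.952 (exact permutation p = 0.00114, adjusted p = 0.0652). For Npc1, Pearson's r was 0.945 (exact permutation p = 0.000322, adjusted p = 0.0477) and Spearman's rho 0.952 (exact permutation p = 0.00114, adjusted p = 0.0652). Spearman's rho thus passed for neither. Npc1 had as few as 335 reads in a library, and RGD1311805 on the opposite strand up to 1089, so some reads may be shared. Without the 2 libraries farthest from the median of the measure, circNrxn3 replicate 2 and scrambled replicate 4, r was −0.940 for Atp6v0d1 and 0.923 for Npc1. On deviations from each group's mean it was −0.965 and 0.926. After removal of each library's length trend, the log2 fold changes of Atp6v0b and Atp6v0c were −0.12 and −0.13 in place of −0.19 each. That of Ctsa, which also ran against the measure, moved the other way, to −0.14 from −0.12. The part of length in the group differences was not tested.

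Grn followed markers of phagocytes. These markers were 12 microglial and 6 macrophage genes, among them Csf1r, C1qa and Lyz2, and Cd68 of the list is itself a lysosomal protein. Their summed level was 745, 492, 692 and 472 CPM in circNrxn3 replicates 1 to 4, against 626, 499.97, 685 and 778 CPM in scrambled replicates 1, 3, 4 and 5 (exact permutation p = 0.629). Of the microglial markers 7 of 12 and of the 5 macrophage markers tested all lay below 0, and 0 passed. Cd163 had 0 reads in at least 1 library, and Ms4a7 likewise. Across the 8 libraries Grn followed the log2 of this sum with Pearson's r of 0.948 (exact permutation p = 0.000372, adjusted p = 0.0491) and Spearman's rho of 0.881 (exact permutation p = 0.00724, adjusted p = 0.125). It was the 1 gene of the 38 to pass for Pearson's r, against 0.0603% of all genes (0.0483% positive and 0.0121% negative), and its rho did not pass. All genes here include the tested markers that make up the sum, which can add to that share. Without circNrxn3 replicates 2 and 4, the libraries farthest from the median, r was 0.899, and it was 0.954 on deviations from each group's mean. Ctsh (0.935), Npc2 (0.884), Ctsz (0.806) and Ctsc (0.804) had the next highest r and did not pass. The V-ATPase genes had r between −0.555 (Atp6v1h) and 0.033 (Atp6v1e1) with the same markers. In what share these genes are expressed by phagocytes or by neurons was not measured in these bulk samples.

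**Figure D4:**
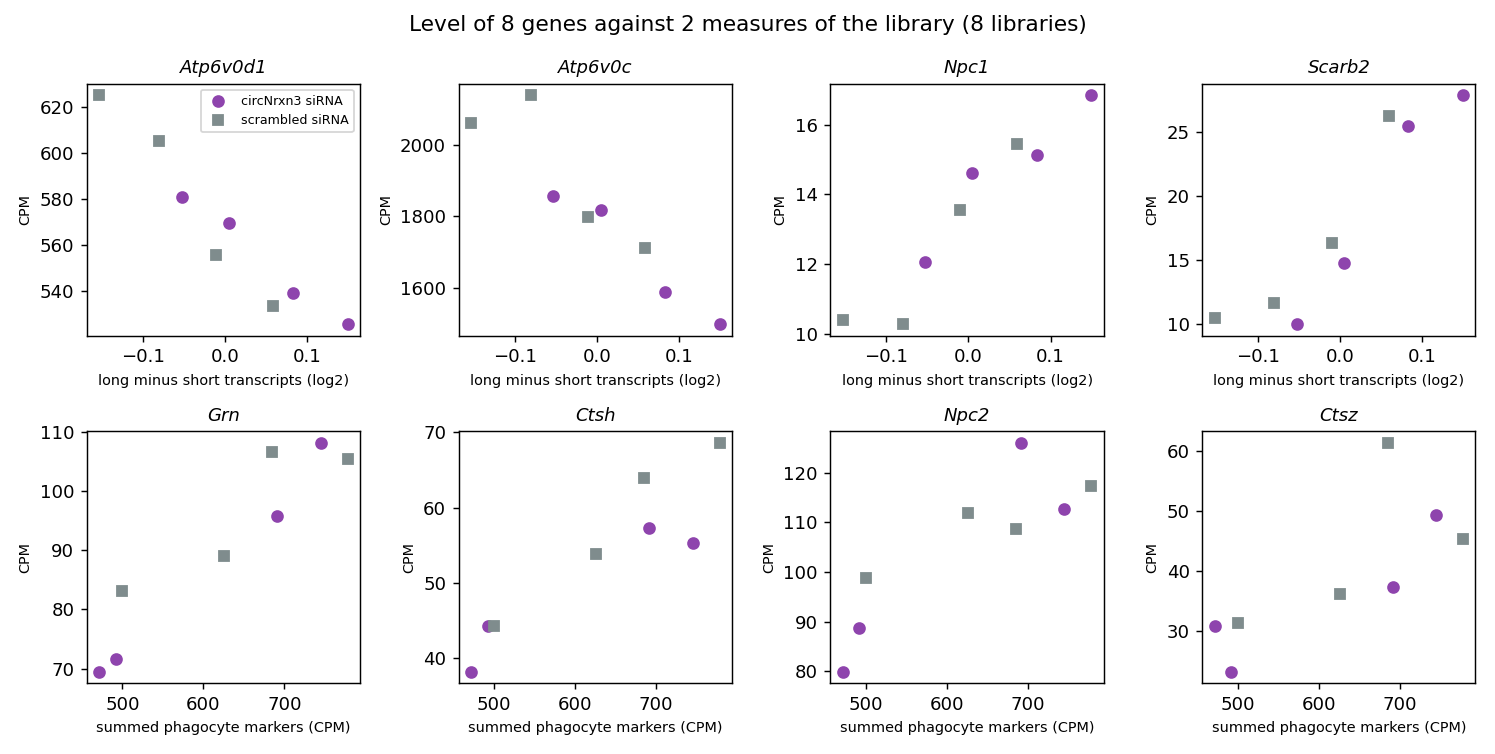
CPM of 8 genes in each library against the balance of long and short transcripts (top row, log2) and against summed phagocyte markers (bottom row, CPM), circNrxn3 siRNA as circles and scrambled siRNA as squares. Atp6v0d1 and Atp6v0c decline and Npc1 and Scarb2 climb along the top axis, and Grn, Ctsh, Npc2 and Ctsz climb along the bottom axis, with both groups mixed along each line.

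**Figure D5:**
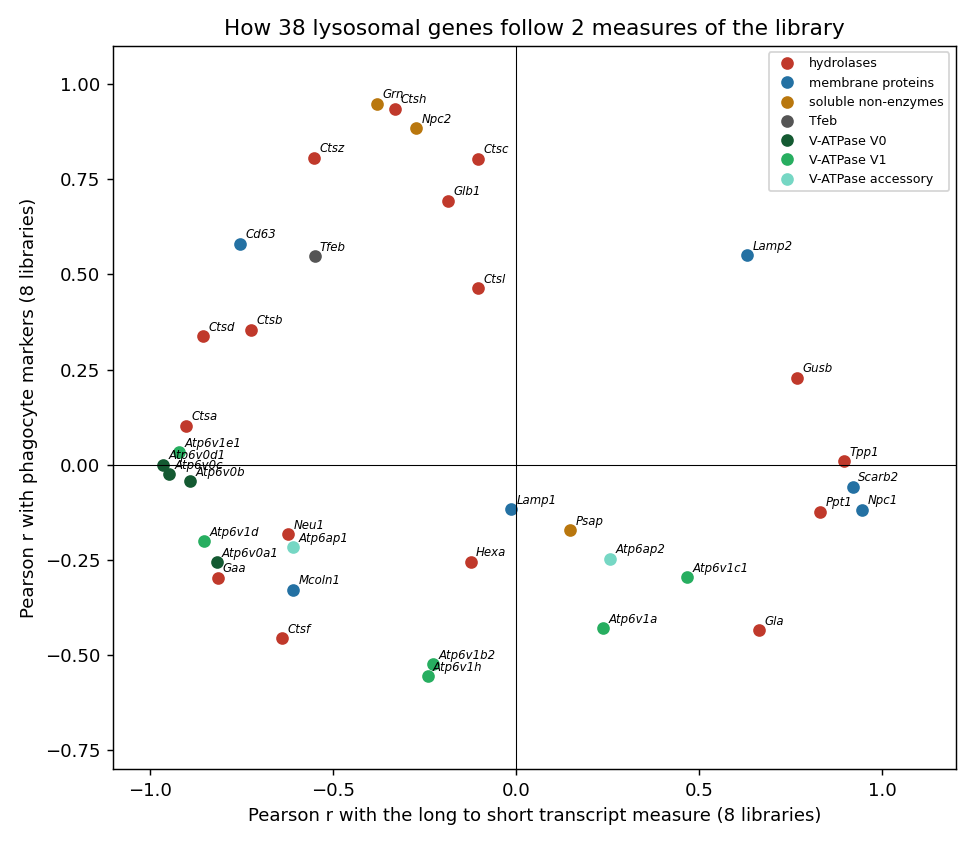
Pearson's r over 8 libraries of each of the 38 genes with the long to short transcript measure (horizontal) and with phagocyte markers (vertical), coloured by role. Grn, Ctsh and Npc2 lie at the top, the V0 genes, Atp6v1e1, Atp6v1d, Ctsa, Ctsd and Gaa toward the left, and Scarb2, Npc1, Tpp1 and Ppt1 toward the right.

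Other lysosomal genes were not called either. Of 104 further genes in 5 lists, 94 gene models were tested and 0 passed in either direction, with 52 above and 42 below 0 and a median log2 fold change of 0.02. An unadjusted p under 0.05 was found for 1 at a higher level (Gnptab) and 3 at lower levels (Rnasek, Rogdi and Lamtor1), against 5.59% of all genes. Other hydrolases had a median of 0.04 over 32 models, with Sgsh, the heparan sulfamidase, at 0.70 (standard error 0.32, 1.34 ± 0.348 CPM in circNrxn3 siRNA libraries and 0.823 ± 0.0759 CPM in scrambled siRNA libraries) and the hyaluronidase gene Hyal2 at −0.16. Other membrane proteins had a median of 0.019 over 19 models, with the chloride-proton exchanger Clcn7 at 0.36 and the sialic acid exporter Slc17a5 at 0.20. The other pump subunits and assembly factors had a median of −0.0063 over 16 models.

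Rnasek, a small membrane protein associated with the V-ATPase, had the smallest p of these lists, at 26.1 ± 2.14 CPM in circNrxn3 siRNA libraries and 33.3 ± 2.57 CPM in scrambled siRNA libraries (SD, n = 4 each). Its groups did not overlap, and its log2 fold change was −0.35, standard error 0.09 (edgeR adjusted p = 0.833). Of the 94 further models, 2 at higher levels (Sgsh and Rragc) and 1 at lower levels (Rnasek) had groups that did not overlap. The shares over all genes tested were 1.82% higher and 1.65% lower. Rogdi, associated with the V-ATPase assembly complex, had −0.19. In the sorting list, with a median of −0.00079 over 12 models, Gnptab and Gnptg, subunits of the enzyme that makes the mannose 6-phosphate tag, had 0.22 and −0.15. In the list of regulators, with a median of 0.033 over 15 models, Lamtor1, which anchors nutrient signalling on the lysosome, had −0.20 and Zkscan3, a transcriptional repressor of autophagy and lysosomal genes, 0.27.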

How the data were processed

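Poly-A selected, strand-marked RNA libraries of 8 rat cortex samples were analysed. The authors deposited whole-number read counts per gene without normalization, and FPKM values that they had scaled between samples. Per the submitters' processing notes, featureCounts 1.5.0-p3, HISAT2 2.0.5, fastp and StringTie 1.3.3b were used with the build rn6, and their settings are not given in the sources used here. The labels call the samples biological replicates. Libraries of a group differed by more than sampling noise (chi-square over degrees of freedom 23.2 to 47.4).

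Counts were fitted with edgeR 4.0.16 in R 4.3.3 (filterByExpr with a minimum count of 10, TMM scaling, robust quasi-likelihood F test, no covariate), with 2-sided p-values adjusted by Benjamini-Hochberg over 16573 genes and a threshold of 0.05. All 38 genes passed the filter, the lowest with 69 reads in its lowest library. CPM use the TMM factors, and the standard error is the log2 fold change over the square root of F. DESeq2 1.42.0 was run on the whole table, and limma 3.58.1 as limma-voom and on log2(FPKM + 1) or log2(FPKM + 0.1) with a mean FPKM of at least 0.1.

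Members, gene lists and the alternatives were chosen with earlier results of these data known. Values in every library are given for the 3 genes with the smallest p, the 3 with the highest FPKM, Tfeb, Lamp1 and any gene without overlap, and for further genes chosen after their values were seen. For each further list the 2 genes with the smallest p are named. Of their symbols Ctso, Hgsnat and Rragb, and the marker Pecam1, were not matched. Replicate numbers 1, 3 and 4 occur in both groups. Correlations used log2 CPM (prior count 2). Their adjusted p covers all genes tested with both measures.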

Additional observations from a re-analysis of the deposited data

How the results depend on the processing

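The count of 0 called among the 38 genes was the same under all 19 alternatives run (RLE scaling, other filters, DESeq2, limma-voom, 3 fits of FPKM, each library left out, the replicate block, the length trend removed, and 3 libraries left out together), with a smallest adjusted p of 0.179. DESeq2 gave no adjusted p for 11 of the 38, which it therefore could not call. Over all genes the count of 0 was 6 with DESeq2, 0 to 1 with each library left out (1 without circNrxn3 replicate 2 or 3), and 3 without the 3 libraries lowest in long transcripts. Of 722 log2 fold changes of the 38 genes recomputed, 685 kept their sign and 37 turned, in 14 genes whose value was at most 0.12 in size. The cause was not tested. Leaving out each library gave −0.027 to 0.063 for Ctsb, −0.29 to 0.033 for Ctsc, −0.15 to 0.0013 for Ctsd, −0.070 to 0.046 for Glb1, −0.0069 to 0.23 for Gusb, −0.036 to 0.039 for Hexa, −0.045 to 0.094 for Lamp1, −0.082 to 0.071 for Atp6v1b2, −0.12 to 0.014 for Atp6v1d and −0.00079 to 0.041 for Atp6ap1. The median of Psap, Npc2 and Grn ran from −0.22 to −0.00079 in the same fits, that of the hydrolases from −0.10 to −0.014, that of the membrane proteins from 0.032 to 0.13 and that of the V-ATPase genes from −0.09 to 0.022 (−0.021 with all libraries). Without the 3 libraries lowest in long transcripts (scrambled replicates 3 and 4, circNrxn3 replicate 3) the median of Psap, Npc2 and Grn was −0.22, that of the membrane proteins 0.011 and that of the V-ATPase genes 0.06, and the values were −0.10 for Gusb, 0.0053 for Hexa, −0.00056 for Lamp1, 0.018 for Mcoln1, 0.0046 for Atp6v0d1, 0.047 for Atp6v1d and 0.0081 for Atp6v1e1. Atp6v1b2 had −0.0077 with RLE scaling, −0.0062 with DESeq2 and −0.034 with the length trend removed, where Hexa had 0.0099 and Atp6v1d 0.0013.

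With the replicate number as a block (replicates 1, 3 and 4 of each group), 0 genes in all and 0 of the 38 were called, 1692 of 16721 genes (10.1%) and 9 of the 38 had an unadjusted p under 0.05, and the values turned to 0.0047 for Ctsd, 0.025 for Glb1, 0.051 for Tfeb and −0.059 for Atp6v1b2. Deviations of same-numbered libraries correlated at 0.369, 0.299 and 0.0866 for numbers 1, 3 and 4. The highest correlation with a library of another of these numbers was −0.0792, 0.218 and 0.218 in the same order. Within this set, numbers 1 and 3 correlated best with their own and number 4 did not. Replicate 2 with circNrxn3 siRNA and replicate 5 with scrambled siRNA were left out of this comparison. The labels do not say that the numbers pair animals, and they were not taken as pairs. No group of 4 libraries held a value that stood apart by Dixon's criterion, in 76 groups examined.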
